A study of Mus musculus with 15 samples.

Results

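The genes described here are 47 interferon response genes of the mouse liver, among them the guanylate-binding proteins (Gbp), chosen by name. A member was measured where the probe annotation of the array gives its symbol to a probe set, which held for 44 of the 47; Gbp5, Gbp6 and Ifi44 were not named there. The 44 stand among 22206 probe sets tested. Liver RNA of separate C57BL/6 mice, colonized with a human gut microbiota, was read on 15 Clariom S arrays, whose short probes give a log2 signal for each gene. In all 5 groups of 3 arrays the mice carried this microbiota, including the water controls. Drinking water was plain in the first group and held 10% fructose in the other 4, of which 3 also received a preservative, for 11 weeks from the age of 3 weeks. Daily doses per kg of body weight were 4.8 mg of sodium benzoate, 0.36 mg of sodium nitrite and 19 mg of potassium sorbate. That makes 14 weeks at the end, while the labels give an age of 11 weeks. The study kept 8 mice per group with the sexes evenly divided per its methods, and the sex of the arrayed mice is absent from the labels.

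Interferons are secreted alarm proteins. Type I interferons (alpha and beta) and type II interferon (gamma) bind receptors on nearly all cells, and kinases of the JAK family then activate STAT proteins. After type I interferon, STAT2 and IRF9 take part in a complex that binds the interferon-stimulated response element (ISRE), whereas interferon gamma acts mainly through the gamma-activated site (GAS). The target genes encode proteins that sense viral RNA, block its translation, tag proteins with ISG15, or, like the Gbp and IRG families of GTPases, attack the membranes around intracellular microbes. In the liver, hepatocytes, Kupffer cells (the resident macrophages) and endothelial cells all respond to interferon, and a bulk RNA sample mixes them.

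Several features of the arrays move with the groups. With water the negative control probes had a median signal of 5.61 ± 0.02 (SD, n = 3), and in the 4 fructose groups their medians averaged between 6.35 and 6.53. The hybridization controls, which are added to every sample, had a mean of 13.02 ± 0.33 (SD, n = 3) with water and between 11.86 and 12.16 in the other groups. The mean of the Y-linked genes Uty, Kdm5d and Eif2s3y lay between 9.37 and 10.00 on all water, fructose and nitrite arrays and on benzoate array 1. It lay between 3.39 and 4.17 on benzoate arrays 2 and 3 and on all 3 sorbate arrays. A signal under the negative control median of its array counted as not well above background. By that measure 31 members were above background on all 15 arrays, 11 on some, and Oas3 and Oasl1, of the OAS family, on none.

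Over the 44 members, the mean of each array's log2 signal, taken relative to each gene's mean over 15 arrays, averaged 0.00 ± 0.20 (SD, n = 3) with water and -0.21 ± 0.14 with fructose. With nitrite it was -0.24 ± 0.09, with benzoate 0.22 ± 0.16 and with sorbate 0.23 ± 0.03. The 3 sorbate arrays lay close together at 0.27, 0.20 and 0.22, and above all fructose and nitrite arrays. Benzoate arrays 2 and 3 lay at 0.32 and 0.31, and benzoate array 1, the array of that group with a high Y-linked mean, at 0.03. Sorbate was the highest of the 5 groups for 15 members, water for 14, benzoate for 13 and nitrite for 2. Nitrite was the lowest for 16 members, and water and fructose for 12 each. These orders are descriptions with no test. They were not counted over all probe sets, so they cannot be read as particular to the members.

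**Figure D1:**
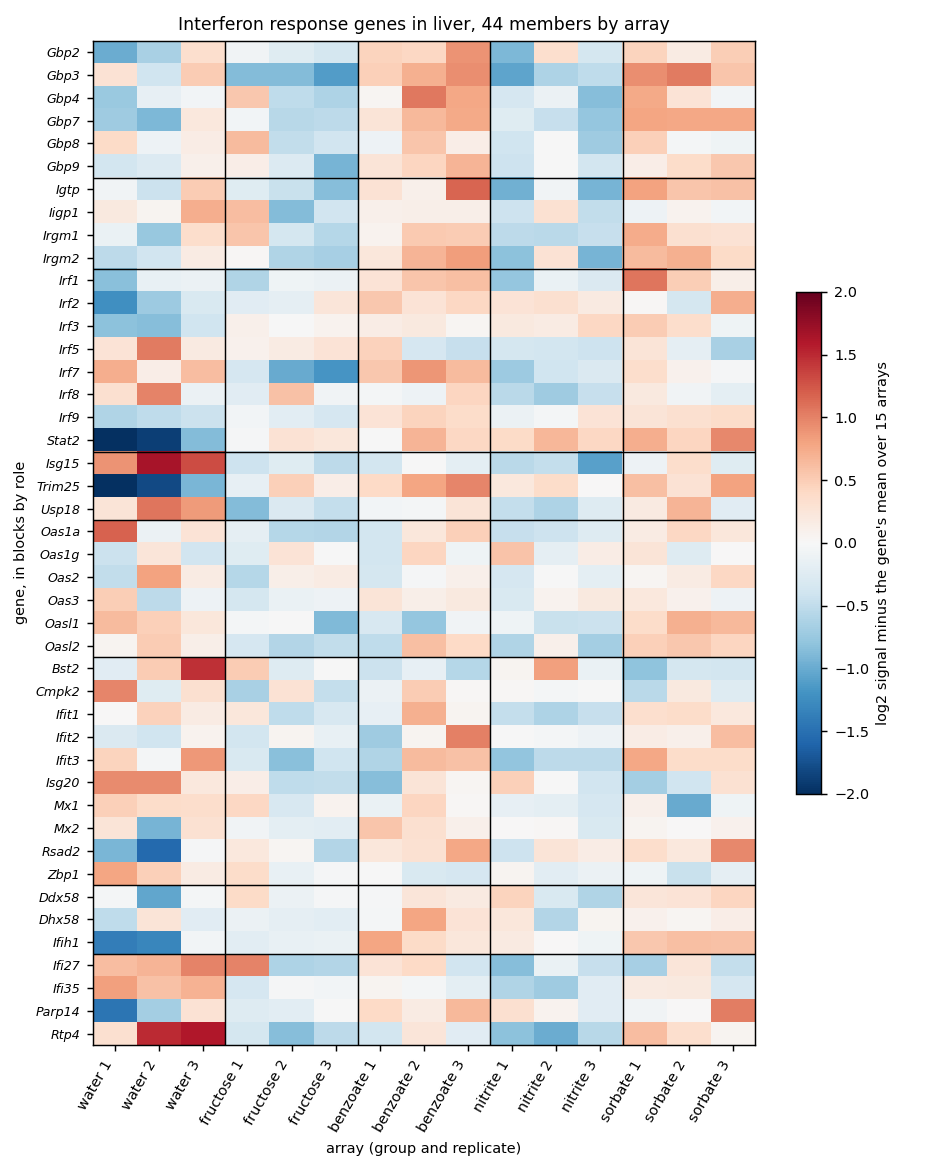
Log2 signal of each of 44 members minus the mean of the gene over 15 arrays, with genes in rows (blocks by role) and arrays in columns (3 for each of 5 groups). Gbp3 is blue on the fructose and nitrite arrays and red on the benzoate and sorbate arrays, and Stat2 and Trim25 are darkest on the water arrays.

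**Figure D2:**
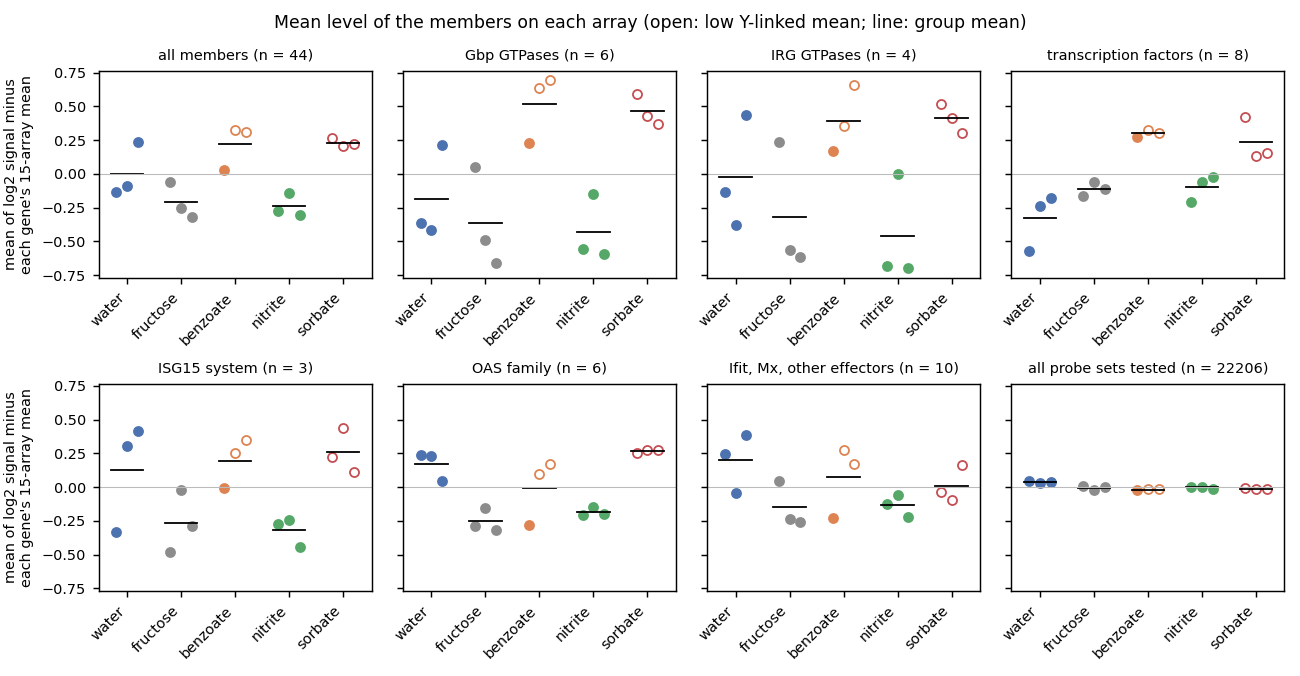
Mean over the members of each role of the log2 signal minus the mean of the gene over 15 arrays (vertical axis), by group (horizontal axis). Points are arrays, open where the Y-linked mean was low, and lines are group means. The 44 members lie at 0.20 to 0.27 on the sorbate arrays and all probe sets stay near 0 on every array.

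Fructose against water compares the sugar without a preservative with plain water. The negative and hybridization controls also differed between these groups, so the sugar and these array features cannot be told apart. With fructose, 10 of 44 members fell and 3 rose at a false discovery rate (FDR, the adjusted p of limma) under 0.05. The members that fell include Isg15, the ubiquitin-like protein that tags others, Irf7, the factor that amplifies type I interferon production, Usp18, Rtp4 and Gbp3. Of the 10, Oasl1 was below background in both groups, and Isg15 and Oas1a on all fructose arrays. Stat2, Trim25 and Irf3 rose. Of all probe sets, 12.7% fell and 11.8% rose, so the share of members that fell was above that of all probe sets, and the share that rose was below it. Members had a median log2 difference of -0.24 and all probe sets of -0.12.

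The preservative comparisons each ask what benzoate, nitrite or sorbate added to fructose. With benzoate, Gbp3 rose, the only member with an FDR under 0.05, beside 0.0135% of all probe sets. Under a looser rule, which the study's results use for the preservatives while its methods name the FDR, a fold change over 2 at an unadjusted p under 0.05, Gbp3, Irf7, Igtp and Irgm2 were higher, 4 of 44 members beside 0.914% of all probe sets. All 3 benzoate arrays lay above all 3 fructose arrays for 17 of 44 members, beside 8.27% of all probe sets. The median log2 difference was 0.46 over the members and -0.03 over all probe sets. No member was lower by limma even at an unadjusted p under 0.05, where 4.62% of all probe sets were.

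With sorbate, Gbp3 rose, again the only member with an FDR under 0.05, beside 0.410% of all probe sets. Gbp3, Gbp7, Igtp and Ifit3 passed the looser rule, 4 of 44 members beside 1.99% of all probe sets. The sorbate arrays lay above all fructose arrays for 20 of 44 members, beside 12.3% of all probe sets. The median log2 difference was 0.46 over the members and -0.03 over all probe sets. At an unadjusted p under 0.05, limma called 0 members lower, beside 6.03% of all probe sets.

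With nitrite, no member passed the FDR or the looser rule. At an FDR under 0.05, limma called 0 of 44 members higher beside 0% of all probe sets, and under the looser rule 0 beside 0.347%. The nitrite arrays lay above all fructose arrays for 3 members, Irf3, Stat2 and Ifih1, beside 8.31% of all probe sets, and below all of them for 2, Irf5 and Irf8, beside 7.89%. At an unadjusted p under 0.05, 0 members were higher (2.76% of all probe sets) and 1 was lower (2.44%). The latter was Irf8, a factor of myeloid cells, with a log2 difference of -0.67, whose signal was not well above background on any nitrite array. Over the members the median log2 difference was 0.03, and over all probe sets -0.0055. The benzoate, nitrite and sorbate comparisons share the same 3 fructose arrays.

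**Figure D3:**
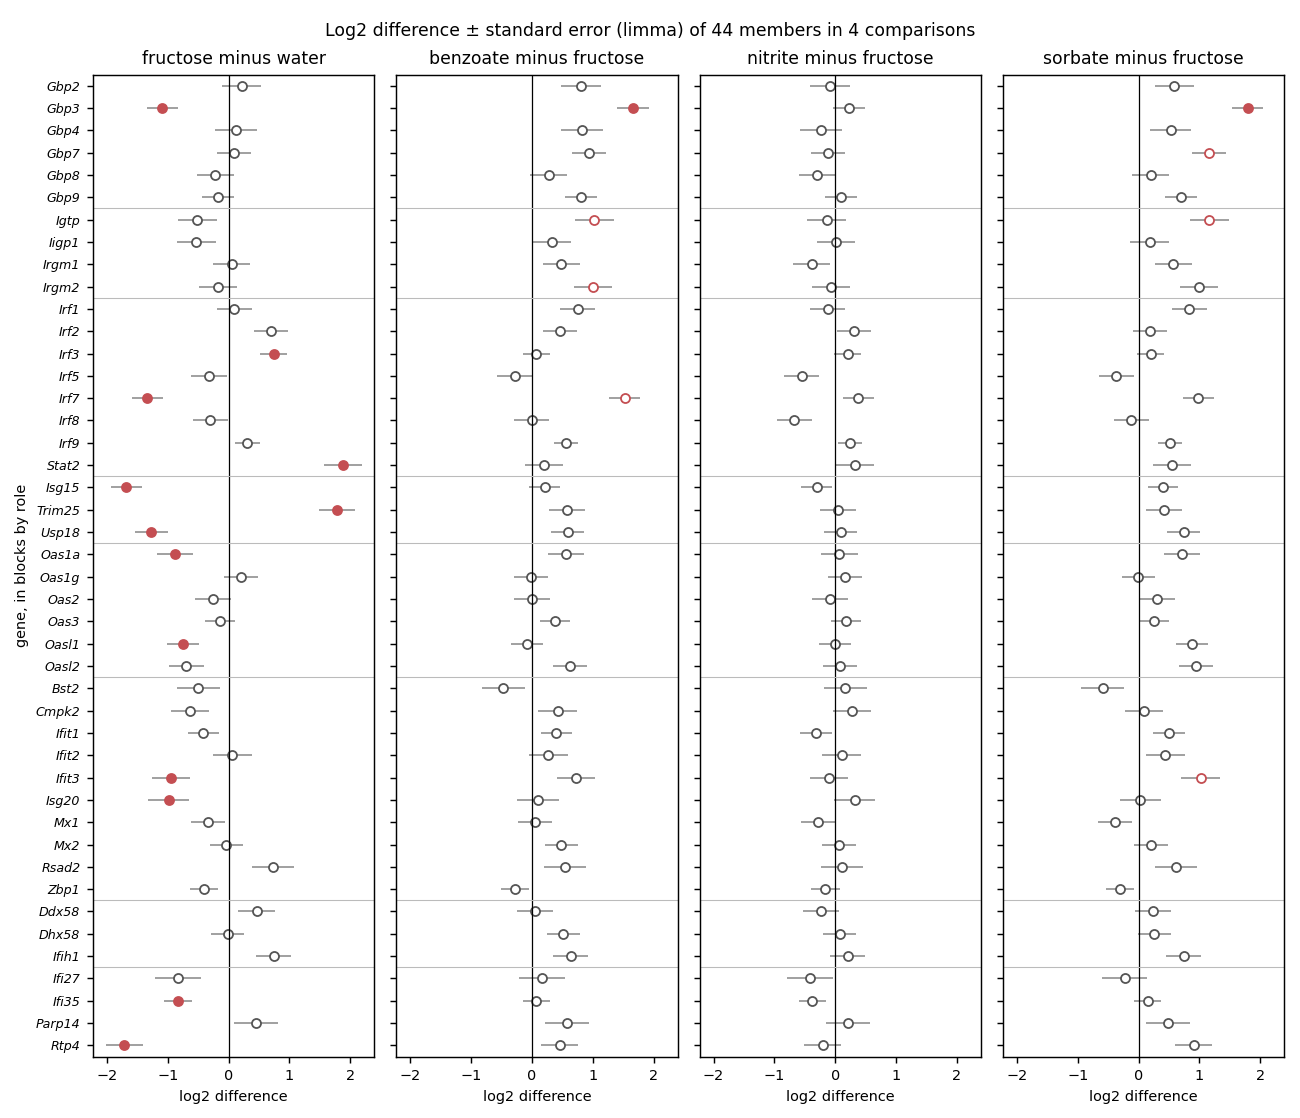
Log2 difference ± standard error (limma, horizontal axis) of 44 members (vertical axis, blocks by role) in 4 comparisons, each with 3 arrays against 3. Filled red points have an FDR under 0.05, and open red points in the preservative comparisons passed the looser rule. Gbp3 is filled in 3 of the 4 panels, and no point is red for nitrite.

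The Gbp proteins are large GTPases, induced foremost by interferon gamma, that coat the vacuoles of intracellular bacteria and parasites. Of the 8 listed, 6 were measured. Gbp3 read 8.87, 8.20 and 9.10 (log2 signal) with water and 7.71, 7.72 and 7.46 with fructose. It read 9.06, 9.31 and 9.51 with benzoate, 7.53, 7.97 and 8.08 with nitrite, and 9.52, 9.62 and 9.14 with sorbate. Every water, benzoate and sorbate array thus lay above every fructose and nitrite array. Gbp3 fell by 1.09 with fructose against water on the log2 scale (SE 0.26, limma adjusted p = 0.00535). Against fructose it rose by 1.66 with benzoate (SE 0.26, limma adjusted p = 0.0368) and by 1.79 with sorbate (SE 0.26, limma adjusted p = 0.00575). With each array left out in turn, the rise with benzoate stayed between 1.55 and 1.78 (log2) but kept an FDR under 0.05 only without benzoate array 1 (limma adjusted p = 0.00304, otherwise 0.147 to 0.312). With sorbate the adjusted p of Gbp3 was 0.051 without sorbate array 1 and under 0.05 without any other array. With nitrite the log2 difference was 0.23, with a 95% interval from -0.32 to 0.77.

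Gbp7, which in mouse macrophages supports the oxidative killing of microbes, had the highest mean of the Gbp genes over the 15 arrays. It read 8.93, 8.75 and 9.86 with water and 9.60, 9.09 and 9.13 with fructose. It read 9.90, 10.30 and 10.41 with benzoate, 9.40, 9.19 and 8.87 with nitrite, and 10.43, 10.42 and 10.42 with sorbate. All benzoate and sorbate arrays exceeded all others. The log2 difference from fructose was 1.15 with sorbate (SE 0.28, limma adjusted p = 0.0655) and 0.93 with benzoate (SE 0.28, limma adjusted p = 0.309), so neither passed the FDR. The other 4 Gbp genes, Gbp2, Gbp4, Gbp8 and Gbp9, had log2 differences from fructose between 0.27 and 0.82 with benzoate and between 0.20 and 0.70 with sorbate, and none passed either rule. All 6 Gbp differences were positive with benzoate and with sorbate, beside 46.6% and 46.2% of all probe sets. With nitrite 2 of 6 were positive, beside 49.2%. With the Y-linked mean as a covariate the log2 differences turned to -0.24 for Gbp4 and -0.22 for Gbp8 with sorbate, and to -0.014 for Gbp8 with benzoate. Genes of this family are close copies of each other, and how far their probes share signal was not tested.

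The IRG family consists of smaller interferon-induced GTPases that act at the same vacuoles, with Irgm1, Irgm2 and Igtp as regulators and Iigp1 as an effector. Igtp read 8.89, 8.54 and 9.47 with water and 8.72, 8.53 and 8.12 with fructose. With benzoate it read 9.25, 9.07 and 10.13, with nitrite 8.01, 8.90 and 8.04, and with sorbate 9.77, 9.53 and 9.55. The benzoate and sorbate arrays lay above all fructose and nitrite arrays, and overlapped the water arrays only through benzoate arrays 1 and 2. Its log2 difference from fructose was 1.03 with benzoate (SE 0.32, limma adjusted p = 0.341) and 1.16 with sorbate (SE 0.32, limma adjusted p = 0.11).

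Irgm2 behaved alike against fructose, with 10.17, 9.55 and 9.48 on the fructose arrays, 10.38, 10.84 and 10.99 with benzoate and 10.79, 10.86 and 10.53 with sorbate. With nitrite it read 9.33, 10.44 and 9.23, and nitrite array 2 lay above benzoate array 1. No benzoate or sorbate array reached down to the fructose range. Its log2 differences from fructose, 1.00 and 0.99, stand on either side of the fold limit of the looser rule. Irgm1, the family member with the highest mean signal, read 10.59, 9.96 and 11.07 with water, 11.27, 10.37 and 10.14 with fructose and 10.78, 11.23 and 11.22 with benzoate. It read 10.19, 10.18 and 10.25 with nitrite and 11.45, 11.03 and 11.01 with sorbate, and fructose array 1 overlapped the preservative groups. The log2 differences of Irgm1 were 0.48 with benzoate and 0.57 with sorbate, and those of Iigp1 were 0.32 and 0.19. None of the 4 IRG genes passed the FDR in any comparison with fructose or water.

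The promoter sequences of the GTPases that passed a rule with a preservative are shown because they hold the elements named above. They come from RefSeq (GRCm38.p6) and are the 120 bases before the start of the gene, 5′ to 3′ on the gene's strand. Capitals mark letters that match ISRE (searched as GAAA, any 2 bases, GAAA) or GAS (searched as TTCNNNGAA) on either strand. Gbp3 (chr3:142559924-142560043, + strand) has an overlapping pair of ISRE matches that begins at position -45 from the start. RefSeq gives Gbp3 2 starts, and the stretch around the other (chr3:142560106-142560405) holds no match of either kind. Gbp7 (chr3:142530216-142530335, + strand) has an ISRE match at -53 and 2 GAS matches, the first at -106. Igtp (chr11:58199436-58199555, + strand) and Irgm2 (chr11:58214857-58214976, + strand) are neighbours on chromosome 11 with the same layout, a GAS match followed by an ISRE match, which begin at -45 and -34 in Igtp and at -75 and -64 in Irgm2.
Gbp3: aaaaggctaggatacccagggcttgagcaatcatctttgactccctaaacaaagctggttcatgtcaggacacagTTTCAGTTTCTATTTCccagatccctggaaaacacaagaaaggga
Gbp7: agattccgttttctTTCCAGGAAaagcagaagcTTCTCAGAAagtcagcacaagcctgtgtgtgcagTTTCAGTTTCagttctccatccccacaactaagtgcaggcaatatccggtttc
Igtp: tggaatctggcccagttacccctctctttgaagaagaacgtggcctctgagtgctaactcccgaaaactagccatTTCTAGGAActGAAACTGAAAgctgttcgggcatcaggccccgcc
Irgm2: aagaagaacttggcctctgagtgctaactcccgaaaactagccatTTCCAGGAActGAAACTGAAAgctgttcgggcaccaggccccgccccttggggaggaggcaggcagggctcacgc

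A RefSeq promoter window, 250 bases before to 50 after the start, was given for 31 of the 44 members, 6 of which have several windows. At least 1 ISRE match lay in the windows of 18 members (58.1%), beside 3.99% of 27025 genes with such windows. At least 1 GAS match lay in 11 members (35.5%), beside 9.55% of all genes, and either motif in 23 (74.2%), beside 12.9%. In Bst2, 1 ISRE match and 1 GAS match overlapped. A match is a description of letters in a window, and many of these genes are known for such elements, so the share describes the list and not these samples. Irf7 and Trim25 had no match of either kind in their windows.

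The transcription factors drive the response. Irf7 read 9.26, 8.67 and 9.14 on the water arrays, 8.19, 7.52 and 7.35 with fructose and 9.06, 9.42 and 9.16 with benzoate. It read 7.81, 8.13 and 8.24 with nitrite and 8.88, 8.62 and 8.50 with sorbate. The fructose and nitrite arrays lay below all arrays of the other 3 groups. Irf7 fell by 1.34 with fructose on the log2 scale (SE 0.26, limma adjusted p = 0.00111). Against fructose its log2 difference was 1.53 with benzoate (SE 0.26, limma adjusted p = 0.0602), 0.98 with sorbate (SE 0.26, limma adjusted p = 0.0896) and 0.37 with nitrite.

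Stat2, the partner of IRF9 in the complex that binds the ISRE, moved the other way with fructose. It read 7.92, 8.43 and 9.45 with water and 10.29, 10.60 and 10.54 with fructose. It read 10.30, 11.00 and 10.73 with benzoate, 10.69, 10.97 and 10.73 with nitrite and 11.04, 10.75 and 11.27 with sorbate. All 12 arrays of the fructose groups lay above the water arrays, among which water 3 was nearest to them. Stat2 rose by 1.88 with fructose (log2, SE 0.31, limma adjusted p = 0.000401). Without water arrays 1 and 2 the log2 difference was 1.03 (limma adjusted p = 0.0751).

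Irf3, which is activated by the RNA sensors, rose by 0.74 with fructose (log2, SE 0.22, limma adjusted p = 0.0207), and missed the FDR without water 1, water 2, fructose 1 or fructose 3 (0.0543 to 0.0687). Irf2, a member with an inhibitory role in the family and the factor with the highest mean signal, read 9.46, 9.96 and 10.39 with water and 10.47, 10.51 and 10.93 with fructose. With benzoate Irf2 read 11.23, 10.97 and 11.11, with nitrite 10.97, 11.01 and 10.86, and with sorbate 10.71, 10.34 and 11.42. The water arrays lay below all fructose arrays, and the difference of 0.70 (log2) did not pass the FDR (limma adjusted p = 0.0789). Irf1 and Irf9 had log2 differences from fructose of 0.75 and 0.56 with benzoate and 0.84 and 0.51 with sorbate, with no array of either group in the fructose range. Irf5 and Irf8, factors of macrophages and other myeloid cells, were not well above background on 7 arrays each, and neither passed a rule.

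**Figure D4:**
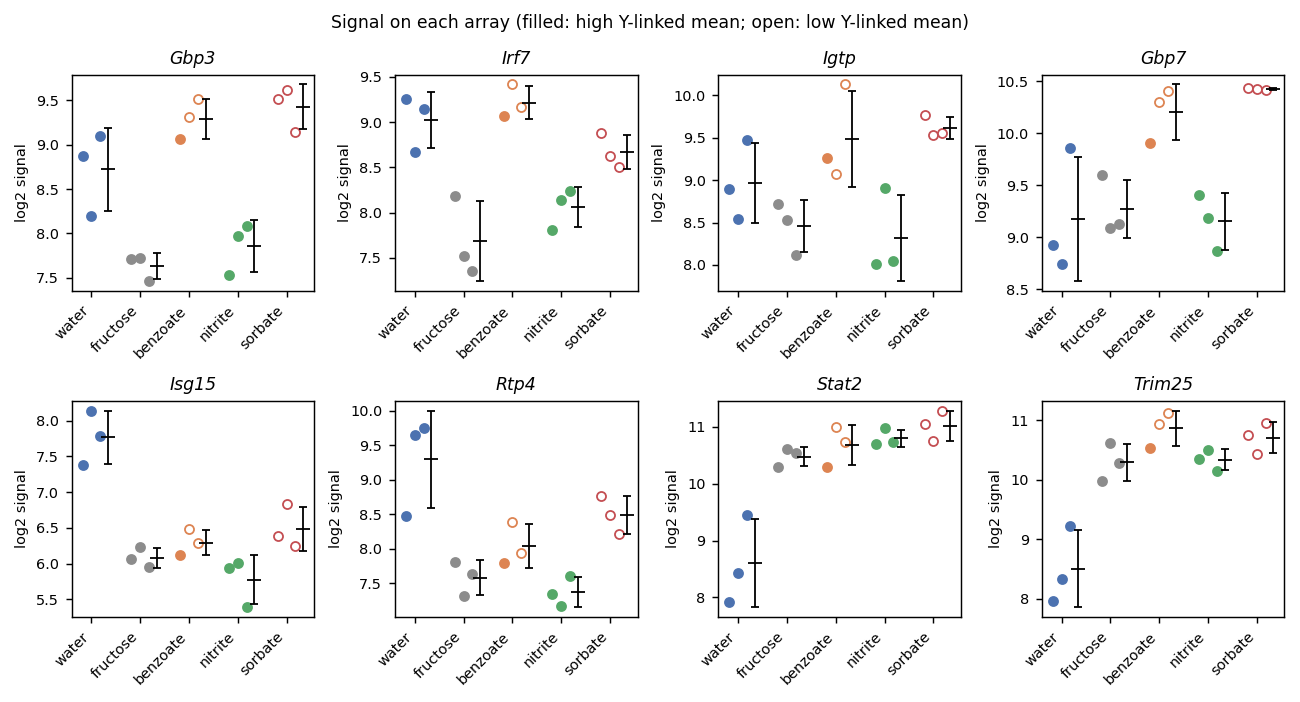
Log2 signal (vertical axis) of 8 members on each array, by group (horizontal axis). Points are arrays, open where the Y-linked mean was low, and the black mark beside them is the mean ± SD of 3 arrays. Gbp3 and Irf7 are low with fructose and nitrite, Isg15 and Rtp4 are high with water, and Stat2 and Trim25 are low with water.

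The ISG15 system links the ubiquitin-like protein Isg15 to targets. Isg15 read 7.38, 8.13 and 7.79 on the water arrays, 6.06, 6.23 and 5.96 with fructose and 6.12, 6.48 and 6.29 with benzoate. It read 5.94, 6.00 and 5.39 with nitrite and 6.38, 6.83 and 6.24 with sorbate. All 12 arrays of the fructose groups lay below the water arrays, and the signal was not well above background on 9 of the 12, including all fructose arrays. The signal was therefore at least 2.51-fold higher with water than with fructose, taking the negative control level as the limit (limma adjusted p = 0.000196, measured log2 difference -1.68). The 120 bases before its start (chr4:156200819-156200938, - strand, RefSeq GRCm38.p6) hold 3 overlapping ISRE matches, in capitals.
Isg15: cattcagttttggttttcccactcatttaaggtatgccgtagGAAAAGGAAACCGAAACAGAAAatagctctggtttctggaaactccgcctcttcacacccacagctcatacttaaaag

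Usp18, which removes ISG15 from proteins and damps the type I receptor, read 8.09, 8.90 and 8.69 with water and 6.96, 7.54 and 7.36 with fructose. It read 7.77, 7.78 and 8.09 with benzoate, 7.35, 7.22 and 7.57 with nitrite and 8.0, 8.50 and 7.60 with sorbate. Water did not overlap fructose, and Usp18 fell by 1.27 (log2, SE 0.27, limma adjusted p = 0.00257). Its log2 differences from fructose were 0.59 with benzoate and 0.74 with sorbate, and did not pass the FDR.

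Trim25, an E3 ligase for ISG15 and ubiquitin that also activates the RNA sensor RIG-I, read 7.96, 8.33 and 9.22 with water and 9.98, 10.61 and 10.28 with fructose. Readings were 10.54, 10.93 and 11.11 with benzoate, 10.35, 10.50 and 10.15 with nitrite and 10.74, 10.43 and 10.94 with sorbate. As for Stat2, the water arrays lay below all others. Trim25 rose by 1.78 with fructose (log2, SE 0.29, limma adjusted p = 0.000372), and the log2 difference was 1.07 without water arrays 1 and 2 (limma adjusted p = 0.0734).

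Among the antiviral effectors, Ifit3, which helps the Ifit proteins bind foreign RNA, fell by 0.94 with fructose on the log2 scale (SE 0.31, limma adjusted p = 0.0362), a call lost without water 1, water 3, fructose 2 or fructose 3 (0.0711 to 0.144). It read 11.11, 10.62 and 11.53 with water, 10.35, 9.83 and 10.26 with fructose and 10.06, 11.30 and 11.24 with benzoate. With nitrite Ifit3 read 9.88, 10.13 and 10.13, and with sorbate 11.43, 11.03 and 11.03. Benzoate array 1 lay within the fructose range, and the other benzoate arrays and all sorbate arrays above it. The log2 difference of Ifit3 from fructose was 1.02 with sorbate (SE 0.31, limma adjusted p = 0.151), which passed the looser rule, and 0.72 with benzoate, which did not. Isg20, an RNA exonuclease, was lower with fructose at an FDR under 0.05 (limma adjusted p = 0.043), but 2 of 3 fructose arrays were not well above background, so the measured log2 difference of -0.99 rests in part on background signal. The call was lost without water 1, water 2, fructose 2 or fructose 3 (adjusted p 0.127 to 0.14).

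Bst2 (tetherin), which holds budding viruses at the cell surface, had the highest mean signal of the effectors. It read 11.21, 11.96 and 12.90 with water and 11.96, 11.19 and 11.43 with fructose. It read 11.01, 11.28 and 10.87 with benzoate, 11.50, 12.27 and 11.32 with nitrite and 10.64, 11.09 and 11.08 with sorbate. All sorbate arrays lay below the fructose arrays, but the log2 difference of -0.59 did not pass either rule (limma adjusted p = 0.504). Mx1 and Mx2, Rsad2 (viperin), Cmpk2, Zbp1, Ifit1 and Ifit2 passed no rule in any of the 4 comparisons, with log2 differences from fructose between -0.28 and 0.54 with benzoate and between -0.39 and 0.61 with sorbate.

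Enzymes of the OAS family make a short RNA-like signal that switches on RNase L. Most of it was dim, with Oas3 and Oasl1 below background on all 15 arrays and Oas1a, Oas1g and Oas2 on 12 to 14 arrays. Oas1a and Oasl1 passed the FDR as lower with fructose (limma adjusted p = 0.0369 and 0.0457). Oasl1 was below background in both groups and Oas1a on all fructose arrays, so no size of change is given for either. The call of Oas1a was lost under 9 alternatives and held under 9, and lost without water array 1 (adjusted p = 0.195), and that of Oasl1 was lost under 12 and held under 5. Oasl2 was the exception in level and read 7.34, 7.79 and 7.42 with water, 6.96, 6.71 and 6.81 with fructose and 6.78, 7.90 and 7.68 with benzoate. It read 6.69, 7.39 and 6.61 with nitrite and 7.77, 7.83 and 7.72 with sorbate. The water and sorbate arrays of Oasl2 lay above all fructose arrays, while its log2 differences of -0.69 with fructose against water and 0.95 with sorbate against fructose missed the FDR (limma adjusted p = 0.0818 and 0.137). With the Y-linked mean as a covariate the difference of Oasl2 with sorbate was 0.024.

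The cytoplasmic sensors of double-stranded RNA were well detected. Ifih1 (MDA5) read 10.02, 10.09 and 11.34 with water, 11.18, 11.24 and 11.26 with fructose and 12.19, 11.77 and 11.63 with benzoate. It read 11.58, 11.40 and 11.31 with nitrite and 11.93, 11.99 and 11.98 with sorbate. All arrays with a preservative lay above all fructose arrays. The log2 differences of Ifih1 were 0.64 with benzoate, 0.21 with nitrite and 0.74 with sorbate, and none passed either rule. With the Y-linked mean as a covariate the difference with sorbate was 1.26 (limma unadjusted p = 0.0172), which passed the looser rule. Ddx58 (RIG-I) and Dhx58 (LGP2) differed from fructose by 0.06 and 0.52 (log2) with benzoate and by 0.24 and 0.26 with sorbate, without passing.

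Of the remaining members, Rtp4 had the deepest fall with fructose. Rtp4, a chaperone of membrane receptors that interferon induces, read 8.48, 9.65 and 9.75 with water, 7.80, 7.31 and 7.63 with fructose and 7.79, 8.39 and 7.93 with benzoate. It read 7.34, 7.17 and 7.61 with nitrite and 8.77, 8.48 and 8.21 with sorbate. Water and sorbate lay above fructose without overlap, and Rtp4 fell by 1.71 with fructose (log2, SE 0.31, limma adjusted p = 0.000658). With sorbate its log2 difference from fructose of 0.91 did not pass (limma adjusted p = 0.188).

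Ifi35, which binds other interferon-induced proteins, fell by 0.83 with fructose (log2, SE 0.22, limma adjusted p = 0.0121). Ifi27, a mitochondrial protein and the brightest of this set, read 11.44, 11.52 and 11.82 with water, 11.83, 10.21 and 10.24 with fructose and 11.10, 11.22 and 10.44 with benzoate. It read 9.98, 10.70 and 10.36 with nitrite and 10.17, 11.07 and 10.35 with sorbate. Fructose array 1 had the highest value of all 15, which spread the fructose group, and the log2 difference from water of -0.83 did not pass (limma adjusted p = 0.115). Across the members, fructose 1 was the highest array of its group for 26 of 44, beside 36.4% of all probe sets. Parp14, an ADP-ribosyltransferase, passed no rule.

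The preservatives were also set against each other, at doses that differ. Sorbate against benzoate called 0 members higher at an FDR under 0.05 (limma, 0% of all probe sets) and 0 under the looser rule (0.252%). At an unadjusted p under 0.05, 1 member, Oasl1, was higher (1.83% of all probe sets) and 1, Irf7, was lower (1.62%). The median log2 difference over the members was 0.00. For Gbp3 the log2 difference of sorbate from benzoate was 0.13, with a 95% interval from -0.41 to 0.68, for Igtp 0.13 (-0.54 to 0.80) and for Irf7 -0.55 (-1.08 to -0.01). Sorbate against nitrite gave a rise of Gbp3 by 1.57 (log2, SE 0.26, limma adjusted p = 0.0102), the only member with an FDR under 0.05 beside 0.248% of all probe sets. Under the looser rule, Gbp3, Gbp7, Ifit3, Irgm2, Igtp and Rtp4 were higher with sorbate than with nitrite, 6 members beside 1.09% of all probe sets. Benzoate against nitrite gave 6 members under that rule, beside 0.486%, which were Gbp3, Gbp4, Gbp7, Irf7, Irgm2 and Igtp.

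The Y-linked genes, which mark male tissue, moved with these results. In the sorbate group all 3 arrays had a low Y-linked mean and in the fructose group none did, so sorbate and sex cannot be told apart. In the benzoate group only array 1 had a high Y-linked mean, like the fructose arrays. Array 1 also had a negative control median of 6.03, against 6.52 and 6.50 on benzoate arrays 2 and 3. Its hybridization control mean was 12.40, against 12.08 and 11.99. Sex and these array features therefore cannot be told apart between benzoate array 1 and the other benzoate arrays. On benzoate array 1, 20 of 44 members lay above all fructose arrays (45.5%), beside 28.1% of all probe sets. The median log2 difference of benzoate array 1 from the fructose mean was 0.20 over the members, and that of benzoate arrays 2 and 3 was 0.56, while over all probe sets these were -0.02 and -0.03. Benzoate array 1 read 9.06 for Gbp3 and 9.06 for Irf7, above every fructose array in both. With the arrays of low Y-linked mean left out, the log2 difference with benzoate was 1.43 for Gbp3 (limma unadjusted p = 0.00269, adjusted p = 0.525) and 1.38 for Irf7 (adjusted p = 0.601), from 1 benzoate array whose spread is assumed to match the other groups. With the Y-linked mean as a covariate, the log2 difference of Gbp3 was 1.52 with benzoate and 1.59 with sorbate (limma adjusted p = 0.255 and 0.469), and that of Ifit3 with sorbate was -0.034. Only the benzoate group held arrays of both kinds, so this covariate rests mostly on benzoate array 1 against arrays 2 and 3. Array 1 was the lowest of its group for 29 of 44 members, beside 38.2% of all probe sets. For sorbate the covariate carries over that difference and does not separate sorbate from sex. Under that covariate 9 members turned from a positive to a negative difference with sorbate (Gbp4, Gbp8, Ifit1, Ifit2, Ifit3, Isg20, Oas2, Cmpk2 and Dhx58) and 9 with benzoate. Turning from negative to positive were 2 with sorbate and 1 with benzoate. The median over the 44 members was then 0.21 with sorbate and 0.25 with benzoate.

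Cell type markers were read on the same arrays, and fewer cells of a type and less RNA per cell cannot be told apart in bulk tissue. The hepatocyte markers were bright. Their summed level (log2 of the summed signals) was 22.03 to 22.37 with water and 22.42 to 22.45 with fructose. It was 22.41 to 22.48 with benzoate, 22.46 to 22.56 with nitrite and 22.35 to 22.54 with sorbate. The fructose range lay above that of water, and 3 of 12 markers rose (limma, FDR under 0.05), beside 11.8% of all probe sets. The nitrite range lay above that of fructose. Of the Kupffer cell markers, 11 of 12 were measured, all above background on every array. Their summed level was 13.86 to 14.27 with water, 12.24 to 12.78 with fructose, 13.19 to 13.77 with benzoate, 12.36 to 13.15 with nitrite and 13.43 to 13.76 with sorbate. In fructose against water, 5 of 11 fell (limma, FDR under 0.05), beside 12.7% of all probe sets. Among the 5, Clec4f fell by 1.49 and Lyz2 by 3.35 on the log2 scale. Against fructose, Clec4f rose by 1.16, the macrophage protein Cd5l by 1.74 and the growth factor receptor Csf1r by 1.20 with sorbate (log2, FDR under 0.05). These are 3 of 11 markers, beside 0.410% of all probe sets. Under the looser rule 4 of 11 Kupffer markers were higher with benzoate, beside 0.914% of all probe sets, and 0 with nitrite, beside 0.347%. With nitrite 10 of 11 differences were nonetheless positive (median 0.27, log2), beside 49.2% of all probe sets. The summed Kupffer level with water, benzoate and sorbate lay above that with fructose and nitrite without overlap, as did Gbp3 and Irf7, and their part in those results was not tested.

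Markers of other immune cells were in part below background. Below background on all 15 arrays were 2 of the T and NK cell markers, among them Cd3e, a defining marker of T cells. Of the neutrophil and monocyte markers 0 were. Of 15 T and NK cell markers measured, 6 fell with fructose against water, beside 12.7% of all probe sets. Most of the 6 were below background on 11 or more arrays, and with each preservative 0 of the 15 passed either rule. The summed level of these markers was 10.00 to 10.85 with water and 9.68 to 9.91 with fructose. It was 9.50 to 9.83 with benzoate, 9.45 to 9.64 with nitrite and 9.46 to 9.85 with sorbate. The nitrite range lay below that of fructose without overlap. Of 8 dendritic cell markers 3, and of 5 B cell and plasma cell markers 3, were below background on all 15 arrays. Of 8 neutrophil and monocyte markers measured 1 fell with fructose against water, as did 1 of the dendritic and 1 of the B and plasma cell markers (12.7% of all probe sets). The summed neutrophil and monocyte level was 8.64 to 8.87 with fructose and 8.34 to 8.69 with sorbate. With benzoate (8.46 to 8.56) and nitrite (8.34 to 8.62) it lay below that of fructose without overlap. Among 10 sinusoidal endothelial markers, 4 rose and 1 fell with fructose, beside 11.8% and 12.7% of all probe sets. Stab2 and Oit3 passed the looser rule with sorbate, beside 1.99% of all probe sets. All 10 endothelial differences from fructose were positive with each preservative. Their medians were 0.54 with benzoate, 0.34 with nitrite and 0.72 with sorbate (log2). Of all probe sets 46.6%, 49.2% and 46.2% were positive in these comparisons. The summed endothelial level was 13.55 to 14.06 with water and 13.69 to 13.97 with fructose. It was 14.05 to 14.84 with benzoate, 13.92 to 14.28 with nitrite and 14.64 to 14.67 with sorbate. The benzoate and sorbate ranges lay above that of fructose, and the part of these markers in the members' values was not tested.

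RNA features moved with fructose against water as well. Of 16 very long, broadly expressed transcripts measured, 15 rose (limma, FDR under 0.05), with a median log2 difference of 2.17. Of 17 ribosomal protein genes, which are short, 14 fell, with a median of -1.12. Of all probe sets, 11.8% rose and 12.7% fell. The rises of Stat2 and Trim25 and the falls of 10 members, Isg15 among them, stand beside these values. The part of these RNA features in the rises or the falls was not tested. With the hybridization controls as a covariate, which differ between water and the other groups, 0 members passed in either direction. Under that covariate Stat2 had a log2 difference of 0.48 and Isg15 of -1.76.

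The rest of the interferon pathway was read from lists of other genes, apart from Usp18, which is also a member. Of 25 interferon and related cytokine genes 22 were measured, and 8 of them, Ifnb1 among them, were below background on all 15 arrays. Ifng was below background on 14. In fructose against water 1 of the 22 was higher and 3 were lower (limma, FDR under 0.05), beside 11.8% and 12.7% of all probe sets. Ifna1 was the higher gene, and Ifna11 and Ifnab were lower, all below background on 13 to 15 arrays. Il18, which drives interferon gamma production and was above background on every array, fell by 1.21 with fructose (log2, limma adjusted p = 0.00173). With each preservative 0 of the 22 passed either rule.

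The receptors were detected on all arrays. Of 10 receptor and JAK-STAT genes measured, Jak1, Tyk2 and Stat3 rose with fructose and Il10rb fell, beside 11.8% and 12.7% of all probe sets, and with the preservatives 0 passed either rule. Among 10 genes that damp the signal, Ptpn11 and Pias1 rose and Ptpn6, Pias4 and Usp18 fell with fructose, beside the same shares of all probe sets. Of 11 upstream sensors and adaptors measured, Mavs, the adaptor of Ifih1 and Ddx58 on mitochondria, rose by 2.11 with fructose (log2, limma adjusted p = 0.000346), and Tlr9 fell at a signal below background on 14 arrays.

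A further list of 74 interferon-induced genes gave 63 that were measured. With fructose, 5 rose and 12 fell (limma, FDR under 0.05), beside 11.8% and 12.7% of all probe sets. Helz2, a helicase and coactivator of nuclear receptors, rose by 2.98 and Pml by 1.23, while Apol9b fell by 2.19 and Apol9a by 2.11 on the log2 scale. With sorbate, 2 rose (0.410% of all probe sets) and 8 passed the looser rule (1.99%). The 2 were Ly6e, a membrane protein that can restrict viral entry, and Parp10, an ADP-ribosyltransferase. With benzoate 3 passed the looser rule (Tgtp2, Parp10 and Ly6e, beside 0.914% of all), and with nitrite 0 did. Ly6e read 15.34, 14.74 and 15.23 with water, 13.62, 13.45 and 13.60 with fructose and 15.06, 14.94 and 14.50 with benzoate. It read 14.30, 14.43 and 14.12 with nitrite and 15.28, 15.13 and 14.87 with sorbate. Every array of the other groups lay above the fructose arrays. Over the 63 genes the median log2 difference from fructose was 0.49 with benzoate, 0.02 with nitrite and 0.46 with sorbate.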

How the data were processed

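Liver RNA of 15 mice, 3 per group, was hybridized to Clariom S arrays. The authors deposited a log2 signal for each probe set, normalized with SST-RMA per the methods, while the submitters' processing notes name RMA, Affymetrix Expression Console 1.4 and Transcriptome Analysis Console. This scaling sets the arrays to a common distribution, so a shift of all genes could not be seen. Groups were taken from the labels. Of 28846 entries, the 6640 that are control probes were not tested.

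limma 3.58.1 in R 4.3.3 (package data.table, version 1.17.8) was fitted to the 15 arrays together with a mean for each group and a common estimate of the spread, and p-values were adjusted over all 22206 probe sets (Benjamini-Hochberg). Precision is limited by the number of arrays. A fold against a group below background was bounded by the negative control median (5222 probes). A symbol with several probe sets was read from the brightest. The fit was tested on simulated data. Promoter windows were matched by symbol to RefSeq. The 47 members, the other gene lists and the tests were chosen with earlier results of these data known.

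Given on every array were, per comparison, up to 6 members with the smallest p among those that passed, Gbp3, and the brightest member of each role. Irf7, Igtp, Irgm2 and Ifit3, which passed only the looser rule in some comparison, and Ly6e were added after their values were seen. Alternatives were quantile normalization, median centring, a filter on dim probe sets (mean under the 30th percentile), trended and robust variances, array weights, only the compared groups, a replicate block, a covariate for the Y-linked mean or for the hybridization controls, the mean of a symbol's probe sets, and each array left out. Leaving out arrays with a low Y-linked mean, or water 1 and 2 together, was chosen after seeing the data. Same-numbered arrays of different groups did not deviate together (correlations -0.08 to 0.22 over 30 pairs), so no pairing was used.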

Additional observations from a re-analysis of the deposited data

Results flagged for a closer look

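Gbp3 differed between the preservatives. Its log2 signal was 1.57 higher with sorbate than with nitrite (limma adjusted p = 0.0102), higher on 3 of 3 sorbate arrays than on any nitrite array. All sorbate arrays had a low Y-linked mean and all nitrite arrays a high Y-linked mean, so sorbate and sex cannot be told apart in this comparison.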

How the results depend on the processing

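Counts of members that passed moved with the settings. For fructose against water, 3 higher and 10 lower became 0 and 0 with the hybridization controls as a covariate, and 0 and 5 without water 1 and 2 together, which was chosen after seeing the data. The 10 lower became 6 with median centring and 6 with only the groups compared. With each array left out the counts ranged from 2 to 7 higher, the most without water 3, and from 6 to 12 lower, the least without water 1 or fructose 3. For benzoate against fructose, the 1 higher at an FDR under 0.05 became 0 with quantile normalization, with only the groups compared, with the replicate block, with the Y-linked mean as a covariate and without the arrays of low Y-linked mean (chosen after seeing the data). It became 2 with median centring, dim probe sets left out, trended and robust variances, 1 value per symbol or the hybridization controls, and 3 with array weights. Left-out arrays gave 0 to 2, with 0 without fructose 2, fructose 3, benzoate 2 or benzoate 3 and 2 without benzoate 1. The 4 under the looser rule became 2 with quantile normalization, the Y-linked mean as a covariate or the low arrays left out, and 2 to 7 with an array left out, 7 without fructose 1 or benzoate 1 and 2 without fructose 3 or benzoate 3. For sorbate, the 1 at an FDR under 0.05 became 2 with dim probe sets left out, 6 with array weights, 5 with only the groups compared and 0 with the Y-linked mean as a covariate, and 0 to 1 with an array left out, 0 without sorbate 1. The 4 under the looser rule became 2 with that covariate, Gbp3 and Ifih1, of which Ifih1 did not pass without it. With an array left out the 4 became 3 to 9, 9 without fructose 1 and 8 without sorbate 3. With the Y-linked mean as a covariate the log2 difference of Ifit3 with sorbate reversed to -0.034. In all, 9 members turned from a positive to a negative difference with sorbate under that covariate and 9 with benzoate. From negative to positive, 2 turned with sorbate and 1 with benzoate. That covariate rests mostly on the benzoate arrays, the only group with both high and low Y-linked means. Nitrite stayed at 0 under every alternative run. The replicate block moved no other of these counts by over 1.5 times. The causes of these shifts were not tested, except that leaving out genes or arrays changes how many enter the fit. Genes that passed kept their direction and side of the threshold in 176 of 233 alternatives for fructose, 46 of 68 for benzoate and 53 of 64 for sorbate. The number of arrays limits what can be detected.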
